A study of Mus musculus with 34 samples.

Results

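Hepatocellular carcinomas (HCC) that arose in mice after γ-rays, a low-LET radiation (low linear energy transfer, sparse ionization along the track), were compared with non-HCC livers of other low-LET irradiated mice, gene by gene. The samples were chosen by their labels alone, radiation Low-LET with pathology HCC or Normal, which gave 3 HCC and 4 livers of the 34 arrays in the series. The HCC came from mice given 2, 2 and 3 Gy and the livers from mice given 3, 5, 6 and 7 Gy, so dose and tissue cannot be told apart. The study's methods describe male C3H/HeNCrl mice, all carrying the strain's own high liability to liver tumors, that received 1 whole-body exposure to γ-rays of a cesium source as young adults and were followed until moribund or until the study ended. The methods give a γ-ray dose range that stops short of the doses on the liver labels, and the labels are used here. Age at collection of each mouse was not given in the sources used here, the study describes the irradiated livers as age-matched, and each array is 1 sample of bulk tissue. Less RNA of a gene can therefore mean fewer cells of a type or less RNA per cell, and these cannot be told apart. Spontaneous HCC (4) and livers (6) of sham-irradiated mice and HCC (7) and livers (10) of high-LET irradiated mice of the same strain enter below only where the low-LET difference is set beside theirs. The methods describe the high-LET exposures as iron or silicon ions. By the labels, the high-LET HCC came from mice given 0.1 to 1 Gy and the high-LET livers from mice given 1 Gy. Doses thus differed between tissues in those mice too, and between the high-LET and low-LET groups.

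In the adult male liver, pulses of growth hormone keep a set of male-biased genes on, among them major urinary proteins and steroid-metabolizing enzymes, and hold female-biased genes off. Mature hepatocytes also carry cytochrome P450 enzymes for drugs and steroids, the enzymes that turn cholesterol into bile acids, and amino acid catabolism. Liver tumors are known for the loss of such functions and for the return of oncofetal genes, which the fetal liver uses and the adult liver silences.

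Signals are normalized intensities on the log2 scale, where a step of 1 is a doubling. Values are given for the HCC in the order 2 Gy of BeadChip 2, 2 Gy of BeadChip 3 and 3 Gy of BeadChip 4, and for the livers in the order 3, 5, 6 and 7 Gy, on BeadChips 2, 2, 5 and 1. A BeadChip is a slide that carries several arrays. Median raw intensities of the 7 arrays were 103 to 121, and 21969 to 26364 of 45281 probes lay above the background limit of their array. The fit covered all 34 arrays in 6 groups, which share 1 estimate of the spread for each probe. SE and p values therefore do not measure the spread of the 7 low-LET arrays alone. A gene was called at an adjusted p under 0.1 (limma, Benjamini-Hochberg over all 45281 probes) with more than a 1.3-fold change, both limits as in the methods. By this rule 2958 probes changed, 6.53% of those tested, 1454 higher and 1504 lower in low-LET HCC. When arrays were scaled by their medians and not quantile normalized, 1419 probes were called, 1090 higher and 329 lower. In a fit of the 7 low-LET arrays alone, 2432 probes were called. Taking 1 probe for each of 19057 genes, 934 genes were higher (4.9%) and 942 lower (4.94%). Every HCC lay above every liver in 1674 genes (8.78%) and below in 1977 (10.4%). The median log2 fold change over all genes was -0.01. Among called genes, 112 were over 4-fold higher and 77 over 4-fold lower, and the median fold was 1.86 for the higher and 1.64 for the lower ones.

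The largest rises were in genes that the livers expressed little or not at all. Akr1c18, an aldo-keto reductase that inactivates progesterone, read 11.57, 12.22 and 11.68 in the HCC, against 5.76, 5.84, 5.92 and 5.80 in the livers. No liver was above background, and the gene was at least 55-fold higher in the HCC (adjusted p = 0.000157). Gpc3, a cell-surface proteoglycan and a widely used marker of HCC, read 11.81, 12.85 and 11.74 in the HCC and 6.51, 6.27, 6.20 and 6.17 in the livers (log2 fold change 5.84, SE 0.914, adjusted p = 0.000184). Every HCC lay over 5 log2 units above every liver for both genes.

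Another 6 members of a list of oncofetal and tumor marker genes rose with them, so that 8 of 21 measured members were higher and none lower, with a list median of 0.67. Golm1, a Golgi membrane protein that serves as a serum marker of HCC, read 9.87, 10.81 and 10.68 in the HCC and 6.68, 6.88, 6.67 and 6.74 in the livers (log2 fold change 3.71, SE 0.535, adjusted p = 8.70e-05). Igdcc4, an immunoglobulin-type receptor, read 10.80, 10.97 and 10.71 against 5.95, 6.15, 6.14 and 6.29 in the livers (log2 fold change 4.69). The membrane proteins Ly6d (5.53) and Tspan8 (4.51) and the trypsin inhibitor Spink1 (4.71) rose by similar amounts. Afp, the fetal counterpart of albumin, rose least of the 8. It read 6.87, 7.99 and 7.32 in the HCC and 5.99, 5.87, 5.91 and 5.94 in the livers, no liver was above background, and it was at least 2.55-fold higher (adjusted p = 0.0966). The count of higher members was 7 without any 1 of the livers, without the 2 Gy HCC of BeadChip 3 or without the 3 Gy HCC. In each of these fits the call lost was that of Afp. Igf2, a fetal growth factor on the same list, stayed at 6.38, 6.43 and 6.39 in the low-LET HCC and 6.28, 6.56, 6.50 and 6.30 in the livers, whereas the spontaneous HCC averaged 11.42 ± 3.69 (SD, n = 4) and sham livers 6.35 ± 0.28 (SD, n = 6). The difference between these 2 tumor-to-liver changes did not pass the test (log2 -5.08, adjusted p = 0.808, limma).

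Among the 15 largest rises, 6 were on the oncofetal list, 3 are the female-biased P450 genes described below, and 6 were on neither list. Both lists were chosen with earlier results of these data known, so these counts are a description and not a test. Cd63, a tetraspanin of late endosomes and secreted vesicles, read 12.19, 12.50 and 12.84 in the HCC and 7.68, 7.88, 8.06 and 7.76 in the livers. Gldn, a secreted adhesion protein known from nodes of Ranvier, was at least 31.3-fold higher, at 10.81, 11.39 and 10.83 in the HCC and 5.95, 5.82, 5.76 and 5.93 in the livers. A2ml1 and Wfdc15b, a protease inhibitor and a WFDC-domain protein, were already measurable in the livers (8.42 to 9.11 and 8.25 to 9.22) and reached 12.77 to 13.57 in the HCC. Sult2a2, a hydroxysteroid sulfotransferase, and Prom2, a membrane protrusion protein, rose by 4.45 and 4.33 on the log2 scale. In all 15 genes the 3 HCC lay within 2.3 of each other, and the lowest HCC was at least 2.9 above the highest liver.

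**Figure D1:**
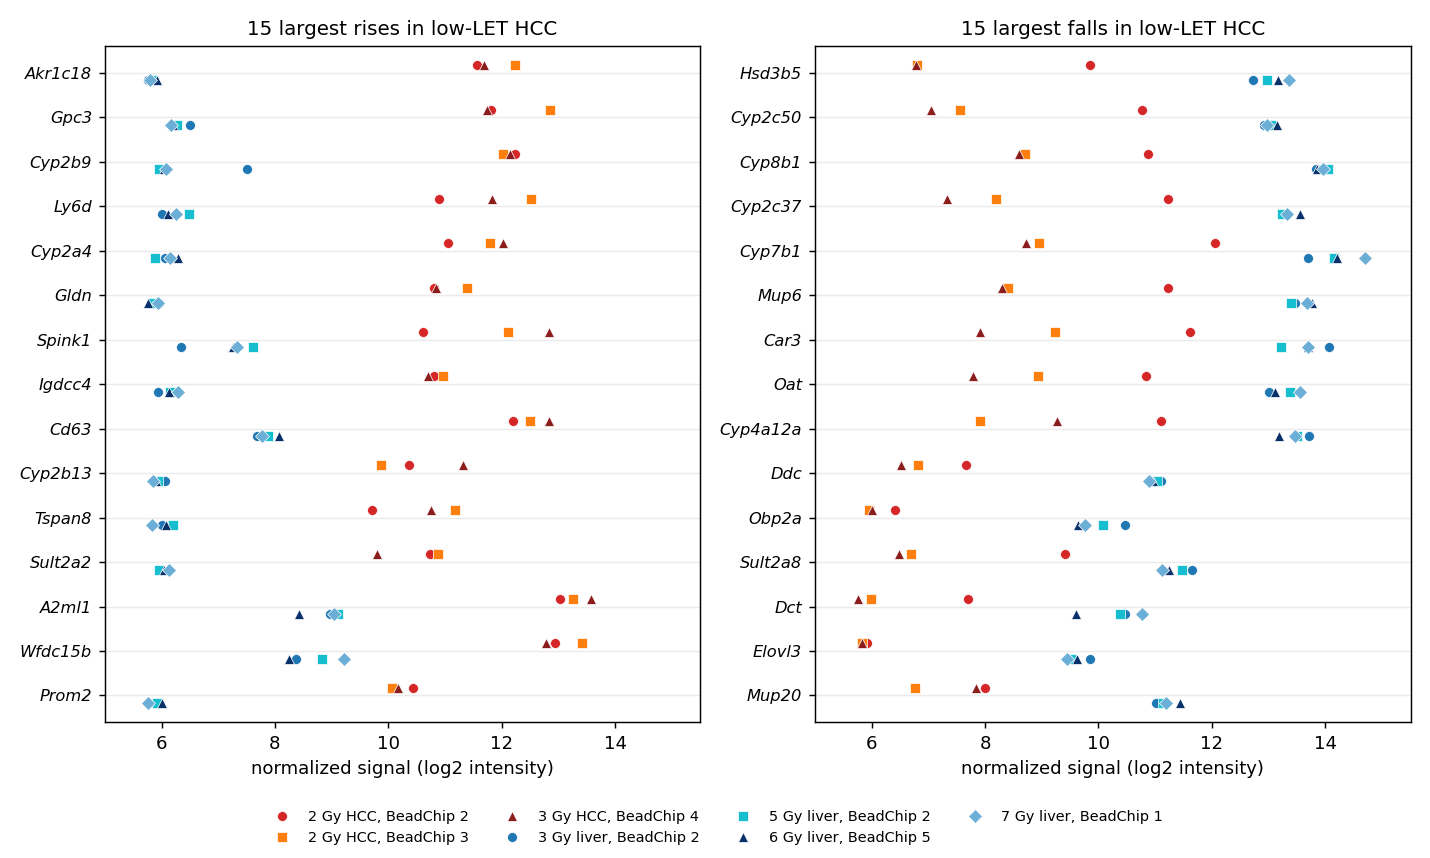
Normalized signal (log2 intensity, x axis) of the 15 largest rises (left) and 15 largest falls (right) in the 3 low-LET HCC (red and orange symbols, upper position in each row) and the 4 low-LET livers (blue symbols, lower position). Groups do not overlap in any row, and in all 15 falls the 2 Gy HCC of BeadChip 2 (red circle) is the highest HCC, as in Hsd3b5 at 9.86 against 6.81 and 6.79.

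Most of the male-biased genes of the liver fell. Of 21 measured list members, 13 were lower and 1 higher in low-LET HCC, with a list median of -2.01. Hsd3b5, a steroid reductase made almost only in male mouse liver, had the largest fall of all genes that met the naming rule, with 9.86, 6.81 and 6.79 in the HCC and 12.73, 12.97, 13.16 and 13.36 in the livers (log2 fold change -5.24, SE 0.873, adjusted p = 0.00033). Elovl3, a fatty acid elongase, read 5.92, 5.83 and 5.84 in the HCC, none of them above background, and 9.84, 9.51, 9.62 and 9.44 in the livers, at least 12-fold lower in the HCC (adjusted p = 1.63e-06). Obp2a, an odorant-binding lipocalin, read 6.42, 5.96 and 6.02 in the HCC and 10.47, 10.09, 9.63 and 9.76 in the livers (log2 fold change -3.85, SE 0.448, adjusted p = 5.29e-06). Each of these genes was far below every liver in every HCC.

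Cyp7b1, the oxysterol hydroxylase, read 12.05, 8.96 and 8.72 in the HCC and 13.70, 14.16, 14.20 and 14.69 in the livers (log2 fold change -4.28, SE 0.9, adjusted p = 0.00322). The major urinary proteins, pheromone carriers that the male liver secretes, fell too, with 8.004, 6.76 and 7.84 for Mup20 in the HCC and 11.02, 11.14, 11.44 and 11.18 in the livers (log2 fold change -3.66, SE 0.553, adjusted p = 0.000128), and with log2 fold changes of -4.26 for Mup6 and -3.54 for Mup21. The Mup genes are near-identical copies, as are Cyp4a12a (-4.03) and Cyp4a12b (-2.01), so a probe may read its neighbors. Serpina12, the serpin vaspin, was the list's single rise (log2 fold change 0.88, adjusted p = 0.0686), and was called on leaving out 1 array only when that was the 2 Gy HCC of BeadChip 2. The count of lower members stayed between 12 and 16 over all alternatives. Of the other large falls, Car3, an abundant carbonic anhydrase of liver, read 11.61, 9.24 and 7.92 in the HCC and 14.07, 13.21, 13.69 and 13.70 in the livers (log2 fold change -4.08). Sult2a8, a bile acid sulfotransferase, read 9.41, 6.70 and 6.48 in the HCC and 11.64, 11.47, 11.25 and 11.11 in the livers, and Dct, known as a melanin enzyme, fell to 7.71, 6.00 and 5.76 in the HCC, against 10.47, 10.39, 9.60 and 10.76 in the livers.

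The female-biased genes did not move as one. Of 18 measured members, 9 of them above background in every array of 1 group, 4 rose and 1 fell, and the list median was 0.08. Cyp2b9 read 12.24, 12.02 and 12.14 in the HCC and 7.51, 5.96, 6.04 and 6.07 in the livers (log2 fold change 5.74, SE 0.722, adjusted p = 1.63e-05). Its paralog Cyp2b13 read 10.36, 9.87 and 11.31 in the HCC and 6.06, 5.94, 5.90 and 5.84 in the livers, none of the livers above background, and was at least 22.2-fold higher in the HCC (adjusted p = 0.000226). Cyp2a4, a female-biased steroid hydroxylase, read 11.05, 11.79 and 12.03 in the HCC and 6.06, 5.89, 6.30 and 6.15 in the livers (log2 fold change 5.52, SE 0.745, adjusted p = 3.64e-05). All 3 P450 genes were high in every HCC, and 1 liver, that of 3 Gy, stood above the others for Cyp2b9.

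Cyp2b10, another member of the same P450 cluster and the classical target of the xenobiotic receptor CAR, went the other way and was named after its values were seen. It read 6.01, 5.79 and 5.94 in the HCC, none above background, and 8.21, 8.47, 8.83 and 7.25 in the livers, at least 4.51-fold lower in the HCC (adjusted p = 0.00219). Sham livers averaged 6.98 ± 0.55 (SD, n = 6), below each low-LET liver, and low-LET against sham livers did not pass the test (log2 1.21, adjusted p = 1, limma). Abcd2, a peroxisomal fatty acid transporter, rose by 2.03 overall but read 9.09, 8.86 and 6.87 in the HCC and 6.29, 6.21, 6.32 and 6.18 in the livers, with the 3 Gy HCC nearest the livers.

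The promoters of the 3 Cyp2b genes are shown because these paralogs moved in opposite directions. Each window holds 300 bases around the gene start, most of them before it (RefSeq, build GRCm38.p6, all on the plus strand of chromosome 7). Capitals in Cyp2b13 mark the bases that differ from Cyp2b9.
Cyp2b9, chr7:26173159-26173458: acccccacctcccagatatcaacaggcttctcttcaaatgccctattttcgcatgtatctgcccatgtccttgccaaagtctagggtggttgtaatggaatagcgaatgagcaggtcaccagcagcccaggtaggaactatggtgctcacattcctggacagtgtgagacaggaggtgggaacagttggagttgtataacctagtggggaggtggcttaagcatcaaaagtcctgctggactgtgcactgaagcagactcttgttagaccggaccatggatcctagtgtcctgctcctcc
Cyp2b13, chr7:26061245-26061544: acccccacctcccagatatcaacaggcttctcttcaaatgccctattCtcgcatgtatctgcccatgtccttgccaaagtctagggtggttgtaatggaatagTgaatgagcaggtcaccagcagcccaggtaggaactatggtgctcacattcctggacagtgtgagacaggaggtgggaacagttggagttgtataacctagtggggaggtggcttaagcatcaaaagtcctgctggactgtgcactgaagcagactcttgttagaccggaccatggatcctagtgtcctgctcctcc
Cyp2b10, chr7:25897408-25897707: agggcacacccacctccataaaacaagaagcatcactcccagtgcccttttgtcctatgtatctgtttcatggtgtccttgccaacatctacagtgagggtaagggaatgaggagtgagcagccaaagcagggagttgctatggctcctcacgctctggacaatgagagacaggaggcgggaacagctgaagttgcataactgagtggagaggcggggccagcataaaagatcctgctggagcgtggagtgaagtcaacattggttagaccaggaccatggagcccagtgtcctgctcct
Cyp2b9 and Cyp2b13, both higher in the HCC, were identical at 298 of 300 aligned positions (99.3%). Cyp2b10, lower in the HCC, was identical to each of them at 229 of 314 aligned columns (72.9%), gaps included. The probes of Cyp2b9 and Cyp2b13 may read each other's transcripts, and probe sequences were not compared. For Cyp2a4, the probe stayed low in livers where its near-identical neighbor Cyp2a5 read high, so it read little of Cyp2a5 there. The Cyp2a5 probe may still read transcripts of Cyp2a4.

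**Figure D2:**
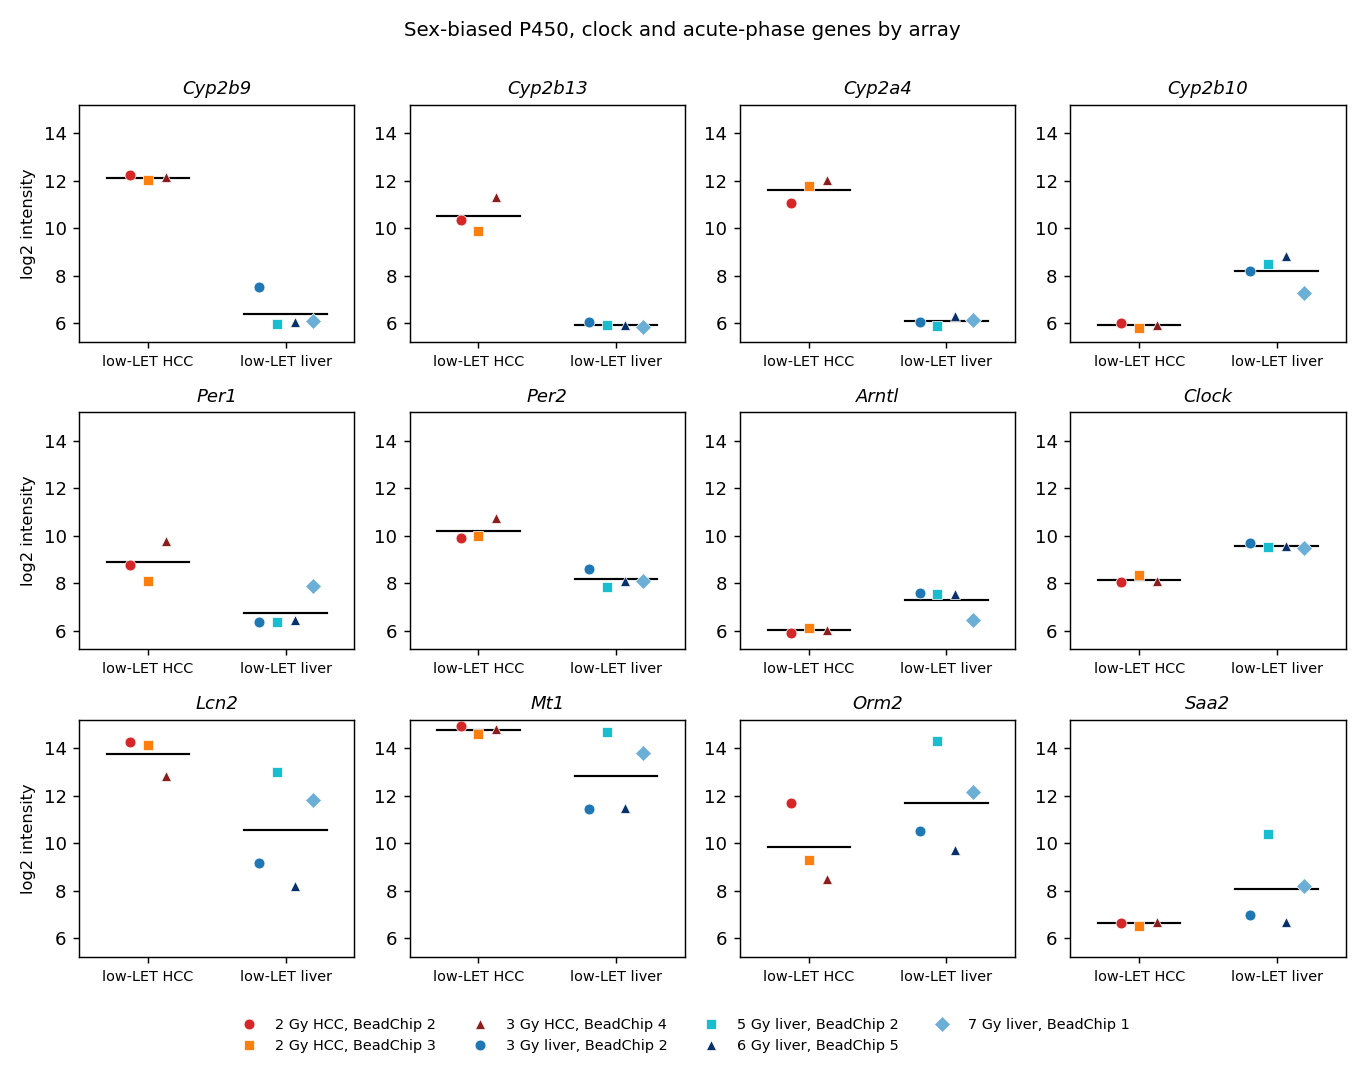
Normalized signal (log2 intensity, y axis) of female-biased P450, clock and acute-phase genes in the 3 low-LET HCC (left of each panel) and 4 low-LET livers (right), 1 symbol per array, with a bar at each group mean. Cyp2b9, Cyp2b13 and Cyp2a4 are high and Cyp2b10 is low in all HCC. The 7 Gy liver lies nearest the HCC for Per1 and Arntl, and the 5 and 7 Gy livers hold the highest liver values of Lcn2, Mt1, Orm2 and Saa2.

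Genes of the growth hormone axis itself changed in 5 of 19 measured members, 4 lower and 1 higher (list median 0.10). Igfals, the carrier subunit of circulating IGF1, read 10.10, 8.53 and 10.44 in the HCC and 12.29, 12.64, 12.34 and 12.53 in the livers (log2 fold change -2.76, SE 0.601, adjusted p = 0.00421). Igf1 fell by 0.99 on the log2 scale (adjusted p = 0.00563), and the growth hormone receptor Ghr read 10.96, 10.19 and 11.02 against 11.85, 11.84, 11.86 and 12.07 in the livers (log2 fold change -1.18, SE 0.383, adjusted p = 0.0668). Bcl6, a repressor that favors the male program, read 7.39, 6.92 and 8.23 in the HCC and 9.75, 10.57, 8.72 and 10.11 in the livers (log2 fold change -2.27, SE 0.677, adjusted p = 0.042). Igfals kept its call under every alternative. Bcl6 lost its call with BeadChip as a fixed block, without the 5 Gy liver and without the 2 Gy HCC of BeadChip 3. Ghr lost its call with the fixed block, under median scaling and without any 1 of the low-LET arrays other than the 2 Gy HCC of BeadChip 2. The count of lower members was 2 with the fixed block, without the 5 Gy liver or without the 2 Gy HCC of BeadChip 3.

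Bile acid synthesis genes fell in 10 of 16 members and rose in none, with a list median of -0.91. Cyp8b1, the sterol 12-alpha-hydroxylase that sets the share of cholic acid, read 10.88, 8.70 and 8.60 in the HCC and 13.83, 14.04, 13.86 and 13.95 in the livers (log2 fold change -4.53, SE 0.798, adjusted p = 0.000581). Cyp27a1, which opens the alternative pathway, read 11.75, 10.42 and 9.96 in the HCC and 13.19, 13.20, 13.25 and 13.30 in the livers (log2 fold change -2.52, SE 0.512, adjusted p = 0.00232). Hsd3b7 (-1.63), the conjugating enzyme Baat (-1.90) and Cyp2c70 (-0.93), which makes muricholic acids, also fell. Cyp7a1, the rate-limiting enzyme of the classical pathway and named after its values were seen, read 10.34, 6.96 and 6.29 in the HCC and 11.22, 11.38, 10.87 and 12.15 in the livers (log2 fold change -3.54, SE 1.23, adjusted p = 0.0947). For Cyp7a1 the 2 Gy HCC of BeadChip 2 lay just below the lowest liver, while the other HCC were over 3 log2 units below every liver. The count of lower members was 6 without the 3 Gy HCC and 6 with BeadChip as a fixed block.

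Among transporters of bile acids and organic anions, 5 of 18 fell and 1 rose. Abcb11, the bile salt export pump, read 9.56, 8.72 and 8.18 in the HCC and 11.03, 10.98, 10.88 and 10.97 in the livers (log2 fold change -2.14, SE 0.393, adjusted p = 0.000884), and the uptake carriers Slco2b1 (-3.19) and Slc22a7 (-1.02) fell with it. Abcg5, a sterol exporter, was the rise, at 12.52, 12.36 and 12.57 in the HCC and 11.02, 11.33, 11.04 and 11.56 in the livers (log2 fold change 1.25, SE 0.228, adjusted p = 0.000856).

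Drug-metabolizing P450 and flavin oxidases fell in 11 of 25 members and rose in 1 (list median -0.92). Cyp2c50, which oxidizes arachidonic acid, read 10.76, 7.55 and 7.05 in the HCC and 12.92, 13.04, 13.14 and 12.97 in the livers (log2 fold change -4.56, SE 1.03, adjusted p = 0.00573), and the related Cyp2c37 fell by nearly as much (log2 fold change -4.41). Cyp2f2, an enzyme of periportal hepatocytes, read 11.65, 9.67 and 10.47 in the HCC and 14.17, 14.01, 14.19 and 13.99 in the livers (log2 fold change -3.50, SE 0.521, adjusted p = 0.000112). Cyp2a5, a coumarin hydroxylase, was the single rise, at 14.43, 14.76 and 14.71 in the HCC and 12.89, 12.38, 13.09 and 13.62 in the livers (log2 fold change 1.63, SE 0.355, adjusted p = 0.00411). The list median lay -0.42, -0.94 and -1.29 from the livers in the 3 HCC. With BeadChip as a fixed block 4 members were lower. Conjugating enzymes fell in 11 of 34 and rose in 4, with Sult5a1 lowest by p (log2 fold change -1.55, SE 0.221, adjusted p = 8.04e-05). Their count of lower members was 3 under median scaling, 4 with the fixed block or without the 3 Gy HCC, and 6 without the 3 Gy or the 6 Gy liver.

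Some genes of each zone of the liver lobule fell. Pericentral and beta-catenin target genes, which hepatocytes around the central vein express, fell in 7 of 20 members and rose in none (list median -0.66). Oat, ornithine aminotransferase, read 10.85, 8.94 and 7.79 in the HCC and 12.999, 13.38, 13.12 and 13.55 in the livers (log2 fold change -4.07, SE 0.912, adjusted p = 0.00532). Slc1a2, a glutamate transporter, read 7.04, 5.85 and 5.93 against 8.80, 8.86, 8.84 and 9.15 in the livers (log2 fold change -2.64, SE 0.626, adjusted p = 0.00834), and Cyp1a2 10.504, 8.44 and 9.29 against 12.81, 12.71, 13.07 and 13.43 (log2 fold change -3.59, SE 0.995, adjusted p = 0.026). The count of lower members ranged from 3 to 12 over the alternatives, and was 3 without the 2 Gy HCC of BeadChip 3 and 4 without the 3 Gy HCC. Of 16 periportal and urea cycle genes, 4 fell and 1 rose. Among those that fell, Etnppl, a phospholyase, read 6.36, 6.25 and 6.20 in the HCC and 9.05, 8.31, 8.97 and 8.74 in the livers, while Slc25a15, the mitochondrial ornithine carrier, and Cps1, the first urea cycle enzyme, were low mainly in the 3 Gy HCC. Cps1 read 13.10, 13.32 and 10.90 in the HCC and 13.72, 13.48, 13.37 and 13.72 in the livers (log2 fold change -1.13, SE 0.388, adjusted p = 0.0881), and lost its call under 11 alternatives. Without the 3 Gy HCC 2 periportal genes were lower.

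Several genes of amino acid catabolism were lower. In the methionine, serine and one-carbon list 10 of 21 members were lower and 2 higher (list median -0.49). Cbs, the entry to transsulfuration, read 10.28, 9.63 and 10.14 in the HCC and 11.73, 11.59, 11.67 and 11.48 in the livers (log2 fold change -1.60, SE 0.235, adjusted p = 9.27e-05). Gnmt, the enzyme that consumes surplus S-adenosylmethionine, read 13.43, 12.59 and 10.58 in the HCC and 14.59, 14.45, 14.47 and 14.27 in the livers (log2 fold change -2.25, SE 0.448, adjusted p = 0.00199), lowest in the 3 Gy HCC. Its call was lost in the fit of the 7 low-LET arrays. Aldh1l2, a mitochondrial folate enzyme, rose by 0.78. Without the 3 Gy HCC 6 members were lower. Of 16 genes of aromatic amino acids, 5 fell and none rose. Ddc, the aromatic amino acid decarboxylase, had 7.66, 6.81 and 6.52 in the HCC and 11.10, 11.02, 10.96 and 10.88 in the livers (log2 fold change -3.99, SE 0.485, adjusted p = 1.23e-05), and Kynu (-1.61), Hgd (-1.26) and Qdpr (-1.03) fell by less.

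Of 30 plasma protein genes 5 rose and 1 fell, with Apoa4 at 15.02, 15.01 and 15.06 in the HCC and 12.53, 12.12, 12.51 and 12.08 in the livers (log2 fold change 2.72, SE 0.579, adjusted p = 0.00355). Apoa4 and Apoc2 (1.76) are apolipoproteins, and Pon1, an HDL-bound esterase, was the fall, at 11.71, 10.17 and 10.19 in the HCC and 13.52, 13.56, 13.48 and 13.28 in the livers (log2 fold change -2.77, SE 0.669, adjusted p = 0.0095). Without the 2 Gy HCC of BeadChip 3, 3 plasma protein genes were higher. Complement genes fell in 4 of 20 and rose in 1, led by C8b (-1.58), C9 (-1.47) and Mbl1 (-1.52), against a rise of the inhibitor Cfi (0.57). Of all genes, 4.94% fell and 4.9% rose. Lipid droplet and fat storage genes rose in 6 of 28 and fell in 2. Cidec, a lipid droplet fusion protein, read 7.72, 8.22 and 7.67 in the HCC and 6.12, 5.98, 5.94 and 5.89 in the livers (log2 fold change 1.89, SE 0.356, adjusted p = 0.00113), and Cidea (1.69), Abhd5 (1.08) and Fabp5 (1.54) rose with it. Cidec kept its call under every alternative, but Cidea, Abhd5 and Fabp5 lost theirs without the 2 Gy HCC of BeadChip 3, where 2 genes of that list were higher and 0 lower. With BeadChip as a fixed block 2 were higher and 1 lower. Fatty acid oxidation genes fell in 3 of 25, with Etfdh at 9.87, 9.52 and 7.51 in the HCC and 10.45, 10.44, 10.503 and 10.24 in the livers. Without the 3 Gy HCC, 0 fatty acid oxidation genes were called lower, and without any 1 of the 3, 5 and 6 Gy livers 1 was. Cholesterol synthesis genes fell in 2 of 17, and in 0 without the 3 Gy HCC, the 3 Gy liver or the 6 Gy liver. Those of fatty acid synthesis rose in 3 and fell in 2 of 19. Pnpla3, a lipid droplet enzyme, read 9.89, 10.61 and 10.59 in the HCC and 8.75, 6.72, 8.199 and 6.94 in the livers (log2 fold change 2.71, SE 0.78, adjusted p = 0.0337), and Fads2, a desaturase of polyunsaturated fatty acids, rose by 1.71. Me1, which supplies NADPH, read 6.88, 6.50 and 6.33 in the HCC and 8.61, 7.77, 8.22 and 7.37 in the livers (log2 fold change -1.42), and Acss2, which makes acetyl-CoA, fell too (log2 fold change -1.18). Pnpla3 lost its call without the 2 Gy HCC of BeadChip 3, the 3 Gy HCC or the 5 Gy liver, and Acss2 without either of these HCC or the 7 Gy liver.

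Some genes downstream of growth factor signaling were higher. In the EGF receptor, ERK feedback and RAS pathway list 9 of 21 members were higher and none lower (list median 0.17). The count of higher members was 5 with BeadChip as a fixed block, and 6 without the 2 Gy HCC of BeadChip 3 or the 3 Gy HCC. Dusp5, a phosphatase that ERK induces and that switches ERK off, read 8.61, 8.91 and 9.34 in the HCC and 6.12, 6.20, 6.34 and 6.09 in the livers (log2 fold change 2.77, SE 0.499, adjusted p = 0.000756). Dusp6, another such phosphatase, read 11.20, 11.68 and 11.72 in the HCC and 9.505 to 10.05 in the livers (log2 fold change 1.70). Both were above every liver in every HCC. Ccnd1, the G1 cyclin, read 12.11, 11.96 and 12.50 in the HCC and 9.07, 8.81, 9.83 and 9.44 in the livers (log2 fold change 2.90, SE 0.593, adjusted p = 0.00244), and Spred1, another ERK inhibitor, rose by 0.81. For each of these 4 genes the 3 HCC lay within 1 log2 unit of each other and above every liver. AP-1 and immediate early genes rose in 8 of 21 members (list median 0.52), and here the HCC differed. Ier3 read 9.91, 10.63 and 11.79 in the HCC and 6.96, 7.24, 7.32 and 7.45 in the livers (log2 fold change 3.54, SE 0.721, adjusted p = 0.00241). Fos read 7.12, 7.92 and 9.20 in the HCC and 6.21, 6.34, 5.96 and 6.15 in the livers (log2 fold change 1.92, SE 0.505, adjusted p = 0.0183), and Junb 10.41, 9.90 and 11.56 against 8.80, 8.86, 7.91 and 9.48 (log2 fold change 1.86, SE 0.511, adjusted p = 0.0246). The 3 Gy HCC was highest for each, its list median lay 1.62 above the livers against 0.25 and 0.24 in the 2 Gy HCC, and without it 2 members were called, against 5 without the 5 Gy or the 6 Gy liver. That HCC was the single low-LET array on BeadChip 4. With BeadChip as a fixed block 2 AP-1 members were called, and Fos and Junb lost their calls. In the Hippo and YAP list 3 of 19 rose, led by the secreted matrix protein Ccn2 (log2 fold change 1.62, SE 0.319, adjusted p = 0.00178) and by the coactivator Wwtr1 (0.95).

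Cell cycle and DNA replication genes rose in 12 of 45 members and fell in 1, by little (list median 0.16). With BeadChip as a fixed block 7 were higher, and in the fit of the 7 low-LET arrays or without the 3 Gy HCC 8 were. Cenpa, the centromeric histone, read 9.77, 10.27 and 10.07 in the HCC and 8.38, 8.48, 8.09 and 8.53 in the livers (log2 fold change 1.67, SE 0.308, adjusted p = 0.00091), Aurka 6.50, 6.43 and 6.99 against 6.16, 6.03, 6.02 and 6.08 (log2 fold change 0.57, SE 0.116, adjusted p = 0.00258), and Mad2l1 rose by 0.73. Every HCC was above every liver for Cenpa and Aurka. The p53 target genes rose in 6 of 24 and fell in 1, and those named were uneven across tumors. Phlda3, a p53-induced inhibitor of AKT, read 6.30, 9.06 and 7.62 in the HCC and 6.19, 6.28, 6.16 and 6.26 in the livers (log2 fold change 1.44, SE 0.355, adjusted p = 0.0114). Psrc1 read 6.10, 7.01 and 6.605 against 5.97, 6.01, 6.02 and 6.06, and Gtse1 6.72, 7.80 and 7.19 against 6.20, 6.40, 6.08 and 6.25 (log2 fold change 1.00, SE 0.185, adjusted p = 0.00089). Phlda3, Psrc1 and Gtse1 were highest in the 2 Gy HCC of BeadChip 3, and Phlda3 and Psrc1 in the 2 Gy HCC of BeadChip 2 were within 0.1 of the highest liver. Without the 2 Gy HCC of BeadChip 3, 1 p53 target was called higher. The count was also 1 with BeadChip as a fixed block and in the fit of the 7 low-LET arrays. Phlda3 and Psrc1 lost their calls in each of these settings. Without the 5 Gy liver 3 p53 targets were called higher. DNA repair genes changed in 3 of 31, close to the share over all genes (4.9% higher and 4.94% lower), with Xrcc6 lower (-0.51) and Lig1 and Rad52 higher. The count of higher members was 0 without the 3 Gy HCC, with the fixed block and in the fit of the 7 low-LET arrays, and Rad52 lost its call under 11 alternatives. Apoptosis genes rose in 4 and fell in 1 of 28, with the inflammatory caspase Casp4 at 7.24, 7.61 and 8.10 in the HCC and 6.17, 6.47, 6.23 and 6.44 in the livers (log2 fold change 1.32, SE 0.378, adjusted p = 0.032). With the fixed block 0 apoptosis genes were higher, and without the 2 Gy HCC of BeadChip 3, the 3 Gy liver or the 6 Gy liver 2 were.

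Of 23 chemokine genes 3 rose, but 1 without the 2 Gy HCC of BeadChip 3, 1 with BeadChip as a fixed block and 0 in the fit of the 7 low-LET arrays. Cxcl9, which draws CXCR3-positive T cells, read 8.89, 12.20 and 11.55 in the HCC and 8.44, 8.11, 8.53 and 8.48 in the livers (log2 fold change 2.49, SE 0.573, adjusted p = 0.00656), Cxcl10 6.77, 8.29 and 7.14 against 6.45, 6.38, 6.37 and 6.35 (log2 fold change 1.01, SE 0.293, adjusted p = 0.0348), and Ccl5 6.41, 9.12 and 7.68 against 6.25, 6.95, 6.62 and 6.90, where the groups overlapped. Ccl5 lost its call under 10 alternatives, and its log2 fold change was 0.37 without the 2 Gy HCC of BeadChip 3, against 1.06 over all arrays. The 2 Gy HCC of BeadChip 3 was highest for all 3 genes and the 2 Gy HCC of BeadChip 2 lowest. None of 11 MHC class II genes was called, with list medians against the livers of -0.06, 0.78 and 0.49 in the 3 HCC. Interferon and class I genes rose in 5 of 39 and fell in 1, with 3 higher without the 2 Gy HCC of BeadChip 3, the 3 Gy HCC or the 3 Gy liver and 1 in the fit of the 7 arrays. Of all genes, 4.9% were higher and 4.94% lower.

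Acute-phase genes, which the liver makes during inflammation, rose in 5 of 27 members and fell in none, yet the list median was -0.01. Il1rn, the interleukin-1 receptor antagonist, read 9.46, 10.13 and 9.69 in the HCC and 6.25, 6.30, 6.12 and 6.02 in the livers (log2 fold change 3.59, SE 0.692, adjusted p = 0.00143), and Cd14, a lipopolysaccharide co-receptor, 9.68, 10.29 and 10.31 against 6.86, 7.72, 6.66 and 7.03 (log2 fold change 3.03, SE 0.828, adjusted p = 0.0238). Cp and Serpina3n rose by 0.86 and 0.92. With BeadChip as a fixed block 2 acute-phase genes were higher, and Cd14 and Serpina3n lost their calls. In the fit of the 7 low-LET arrays 3 were higher. Lcn2, an iron-scavenging lipocalin named after its values were seen, read 14.27, 14.15 and 12.83 in the HCC and 9.15, 13.01, 8.18 and 11.81 in the livers (log2 fold change 3.21, SE 0.933, adjusted p = 0.0357). The 5 Gy liver lay above the 3 Gy HCC, so the groups overlapped. Orm2 and Saa2, further acute-phase proteins chosen in the same way, were highest in the 5 Gy and 7 Gy livers. Orm2 read 11.67, 9.28 and 8.49 in the HCC and 10.53, 14.31, 9.70 and 12.16 in the livers, and Saa2 6.65, 6.50 and 6.68 against 6.96, 10.39, 6.67 and 8.18, and neither passed the test (adjusted p = 0.427 and 0.268, limma). Sham livers averaged 8.18 ± 0.85 for Lcn2, 9.85 ± 0.40 for Orm2 and 6.71 ± 0.16 for Saa2 (SD, n = 6). The 3 and 6 Gy livers lay within 1 log2 unit of those means for all 3 genes, and the 5 and 7 Gy livers lay above them by more than 1. Across all genes no probe separated the 4 low-LET livers from the 6 sham livers (0 of 19057 genes, 0%, limma), and 1501 of 45281 probes had an unadjusted p under 0.05.

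Among 17 measured clock genes, 6 were higher and 3 lower in the HCC (list median 0.50). The clock runs on CLOCK or NPAS2 paired with ARNTL (BMAL1), which switch on Per and other genes through E-boxes, and PER proteins repress them in turn. Per2 read 9.90, 9.98 and 10.73 in the HCC and 8.61, 7.83, 8.09 and 8.09 in the livers (log2 fold change 2.05, SE 0.368, adjusted p = 0.000723). Per3 (1.13) and the output transcription factor Tef (log2 fold change 1.71, SE 0.409, adjusted p = 0.00901) rose, while Clock fell, at 8.05, 8.33 and 8.07 in the HCC and 9.70, 9.51, 9.55 and 9.46 in the livers (log2 fold change -1.41, SE 0.294, adjusted p = 0.00304). Per1, Ciart and Arntl were named after their values were seen. Per1 read 8.74, 8.10 and 9.77 in the HCC and 6.38, 6.35, 6.44 and 7.87 in the livers (log2 fold change 2.11, SE 0.535, adjusted p = 0.0138), and Arntl, on the opposite arm, 5.91, 6.09 and 6.01 against 7.58, 7.56, 7.54 and 6.43 (log2 fold change -1.27, SE 0.343, adjusted p = 0.0218). The 7 Gy liver stood between the other livers and the HCC for Per1, Ciart (9.25, 7.78 and 9.63 in the HCC, 6.26, 6.11, 6.39 and 7.53 in the livers) and Arntl. The hour of tissue collection was not given in the sources used here, and its part in these differences was not tested. Without the 3 Gy HCC 3 clock genes were called higher.

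Promoters of 4 clock genes are shown because the arms of the clock moved in opposite directions within each HCC. Windows are as above (RefSeq, GRCm38.p6). Capitals mark the E-box CACGTG, searched on both strands, in the genes that rose, and the ROR element TAGGTCA, searched on both strands, in Arntl, which fell. For Tef the first of its annotated starts is given.
Per1, chr11:69098699-69098998, plus strand: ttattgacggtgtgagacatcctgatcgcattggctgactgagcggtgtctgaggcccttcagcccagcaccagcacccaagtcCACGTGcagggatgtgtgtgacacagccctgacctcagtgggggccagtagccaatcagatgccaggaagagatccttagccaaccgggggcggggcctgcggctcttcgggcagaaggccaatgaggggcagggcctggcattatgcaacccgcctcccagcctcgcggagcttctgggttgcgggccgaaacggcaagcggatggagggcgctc
Tef, chr15:81802423-81802722, plus strand: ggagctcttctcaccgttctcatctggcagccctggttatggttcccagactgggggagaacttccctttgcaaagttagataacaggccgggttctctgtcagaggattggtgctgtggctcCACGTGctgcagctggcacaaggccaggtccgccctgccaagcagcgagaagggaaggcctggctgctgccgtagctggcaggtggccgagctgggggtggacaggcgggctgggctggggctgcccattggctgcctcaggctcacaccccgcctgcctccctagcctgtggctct
Ciart, chr3:95882179-95882478, minus strand: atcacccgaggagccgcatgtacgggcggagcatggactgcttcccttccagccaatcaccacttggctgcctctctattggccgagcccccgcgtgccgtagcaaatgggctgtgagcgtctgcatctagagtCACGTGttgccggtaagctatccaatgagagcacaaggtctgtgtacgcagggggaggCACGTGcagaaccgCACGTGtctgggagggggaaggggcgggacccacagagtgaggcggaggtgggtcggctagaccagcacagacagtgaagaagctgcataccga
Arntl, chr7:113207261-113207560, plus strand: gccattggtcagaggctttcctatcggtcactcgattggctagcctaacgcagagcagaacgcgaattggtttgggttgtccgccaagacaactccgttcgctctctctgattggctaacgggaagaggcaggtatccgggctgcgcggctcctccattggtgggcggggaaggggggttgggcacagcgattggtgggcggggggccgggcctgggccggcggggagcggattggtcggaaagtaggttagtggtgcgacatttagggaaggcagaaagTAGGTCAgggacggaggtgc
The E-box begins 166 bases before the start of Per1 and 127 before that of Tef, and Ciart holds 3 copies. An E-box was found in 2349 of 32851 promoter windows (7.15%), or 2187 of 27025 genes. Over the clock list it was found in 6 of 20 windows (30%), or 5 of 15 genes. These were 3 of the 4 clock genes called higher that had a window, and Cry1 and Bhlhe41, which were not called. None of the 3 called lower had one. The ROR element was found in 856 windows (2.61%), and among the clock genes in Arntl alone. A match is a description of these letters and not a bound site.

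Housekeeping genes moved by little. Of 38 cytosolic ribosomal protein genes 8 rose and none fell (list median 0.31), and of 46 oxidative phosphorylation genes 9 fell and none rose (list median -0.27). Rpl12 read 12.46, 12.85 and 12.75 in the HCC and 11.85, 11.65, 12.003 and 11.79 in the livers (log2 fold change 0.86, SE 0.218, adjusted p = 0.0137), and Ndufb3, a complex I subunit, 9.76, 9.87 and 9.503 against 10.42, 10.10, 10.49 and 10.36 (log2 fold change -0.63, SE 0.138, adjusted p = 0.00428). Under median scaling 0 members of both lists were called, with medians of 0.31 and -0.28. Without the 3 Gy HCC 4 ribosomal genes were higher and 3 oxidative phosphorylation genes lower, and without the 2 Gy HCC of BeadChip 3, 16 oxidative phosphorylation genes were lower. Cyc1 read 11.47, 11.24 and 9.85 in the HCC and 11.83, 11.57, 11.83 and 11.73 in the livers, with the 3 Gy HCC far below the rest. Matrix genes rose in 4 of 26, with the collagen-binding protein Sparc at 10.94, 12.96 and 11.75 in the HCC and 8.90, 8.62, 8.88 and 8.37 in the livers (log2 fold change 3.19, SE 0.543, adjusted p = 0.000412), and in 2 without the 3 Gy HCC. Over all genes, 4.9% rose and 4.94% fell.

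Smaller groups held single genes that moved. Among glycolysis genes 1 of 21 rose, the aldolase Aldoa (9.84, 9.98 and 11.35 in the HCC, 9.08, 8.51, 9.52 and 9.28 in the livers). Of 10 gluconeogenesis genes 2 fell and 1 rose, with G6pc, the glucose-6-phosphatase that releases glucose, at 8.90, 9.30 and 8.18 in the HCC and 10.40, 11.29, 11.58 and 11.63 in the livers (log2 fold change -2.43, SE 0.749, adjusted p = 0.0505). Iron genes split 4 and 4 of 20, with Id1, a target of BMP signaling, at 9.13, 10.27 and 9.97 in the HCC and 7.40, 6.87, 8.202 and 7.38 in the livers (log2 fold change 2.33, SE 0.47, adjusted p = 0.00222), and Hfe (-0.85) and Steap3 (-0.45) lower. Of 24 hepatocyte transcription factor and nuclear receptor genes 2 rose, Foxa3 (1.01) and the unfolded protein response factor Xbp1 (0.62), and none fell. NRF2 targets changed in 2 of 18, with Srxn1 higher (1.47) and Gclm lower (-0.65). Proteasome genes changed in 3 of 31, and coagulation genes fell in 2 of 21, Serpinc1 (-0.58) and Tfpi (-0.88). For comparison, 4.9% of all genes rose and 4.94% fell. These shares cover all 19057 genes, of which 11860 were above background in every HCC or in every liver. A larger part of each list in this paragraph was above background in that way. Without the 3 Gy HCC 0 genes of the glycolysis, gluconeogenesis, transcription factor, NRF2 and proteasome lists were called, and without the 2 Gy HCC of BeadChip 3 the iron genes split 2 and 2.

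Markers of other cell types were compared beside these genes. Ttr, a plasma carrier made by hepatocytes, read 14.51, 14.61 and 14.68 in the HCC and 14.64, 14.51, 14.65 and 14.43 in the livers, and of 9 hepatocyte markers Serpina1a rose and Cps1 fell, the call of Serpina1a being lost under 9 alternatives and that of Cps1 under 11. The Alb probe read only 7.24, 7.57 and 7.29 in the HCC and 6.73, 6.59, 7.03 and 6.80 in the livers, too faint for a gene of this abundance to serve as a marker. Of 15 Kupffer cell and macrophage markers 1 rose, Gpnmb (6.41, 8.82 and 9.36 in the HCC, 6.11, 5.95, 5.99 and 5.94 in the livers), and the summed signal of the list was 11.31 to 12.48 in the HCC and 11.80 to 12.84 in the livers. Gpnmb lost its call, and the list count was 0, without any 1 of the 4 livers, without the 2 Gy HCC of BeadChip 3 or the 3 Gy HCC, with the fixed block and in the fit of the 7 low-LET arrays. The Kupffer markers Clec4f (9.84, 8.88 and 7.64 in the HCC, 9.81, 10.30, 9.49 and 10.60 in the livers) and Vsig4 (10.09, 9.16 and 7.31 and 9.84, 10.52, 9.30 and 9.98) were lowest in the 3 Gy HCC. No neutrophil (10), T and NK cell (11), B and plasma cell (7), dendritic (8) or adipocyte (5) marker was called. Neutrophil markers summed to 10.25 to 10.94 in the HCC and 9.71 to 11.67 in the livers, and T and NK cell markers to 10.58 to 10.87 in the HCC and 11.04 to 11.25 in the livers. Endothelial Stab1 rose, highest in the 3 Gy HCC (8.65, 8.71 and 10.38 in the HCC, 7.51, 7.70, 7.80 and 8.17 in the livers), as did stellate Reln (1.57) and epithelial Cdh1 (1.62), while stellate Ngfr (-0.89), erythroid Alas2 (-1.27) and acinar Amy2a5 (-0.77) were lower. Of these, Reln kept its call under every alternative, Stab1 lost it in the fit of the 7 arrays, and Cdh1, Ngfr, Alas2 and Amy2a5 lost it without the 3 Gy HCC among others. They were 1 of 15 endothelial, 1 of 8 cholangiocyte and progenitor, 1 of 4 erythroid and 1 of 7 acinar markers. Over all genes, 4.9% rose and 4.94% fell. Of 14 stellate markers 1 rose and 1 fell. The erythroid list did not follow Alas2, with a list median of 0.04. Its summed signal was 14.53 to 15.23 in the HCC and 13.59 to 14.69 in the livers. Acinar markers summed to 12.32 to 12.95 in the HCC and 13.24 to 13.43 in the livers. The biliary markers Krt19 (5.95, 6.11 and 6.56 in the HCC, 5.84, 5.87, 6.02 and 6.08 in the livers) and Epcam (5.74, 5.72 and 5.76 and 5.85, 5.83, 5.72 and 5.76) were at or near background. The part of cell makeup in the changes above was not tested.

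The 3 HCC departed from the livers by different amounts. Over the 1876 called genes, the median SD between the HCC was 0.321 and that between the livers 0.13. Correlations across genes with the livers were 0.967 to 0.971 for the 2 Gy HCC of BeadChip 2, 0.951 to 0.953 for that of BeadChip 3 and 0.923 to 0.931 for the 3 Gy HCC, whereas livers correlated with each other at 0.99 to 0.994. Among genes called higher, the 2 Gy HCC of BeadChip 2 was nearest the livers in 560 of 934 (60%), and among those called lower in 554 of 942 (58.8%). The 3 Gy HCC was farthest in 577 (61.8%) and 520 (55.2%). As those genes were called with all 3 HCC, each HCC was next set against the genes called without it. In the 1161 genes higher and 1162 lower without the 2 Gy HCC of BeadChip 2, that HCC went the same way in 1036 (89.2%) and 1046 (90%), with a median shift of 0.49 and 0.56 of that of the other HCC. For the 2 Gy HCC of BeadChip 3 the shares were 97.9% of 804 and 96.2% of 800, with relative shifts of 0.81 and 0.82. For the 3 Gy HCC they were 88.6% of 589 and 88.3% of 660, with 0.92 and 0.88. The livers are shared by these calls and shifts, and the genes were selected for their size in the other HCC, so the relative shifts are a description with no test.

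**Figure D3:**
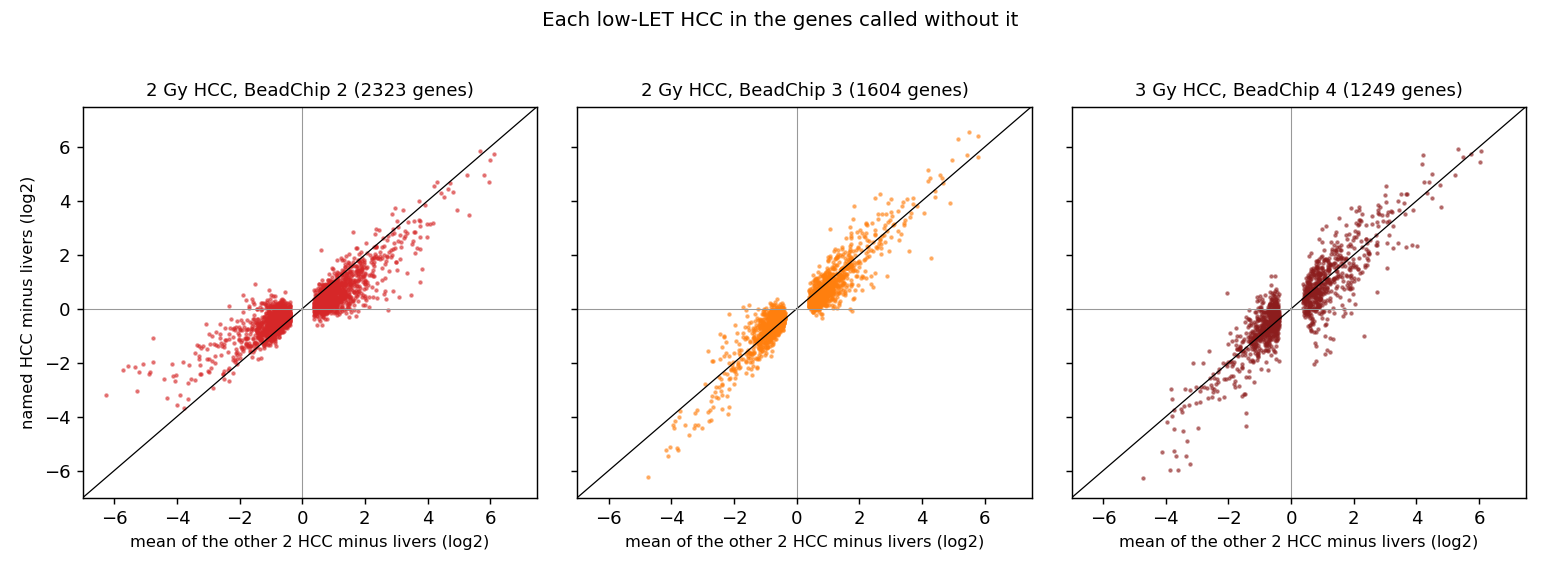
Each panel plots the genes called without 1 low-LET HCC, with the mean of the other 2 HCC minus the mean of the 4 livers (x axis, log2) and that HCC minus the livers (y axis, log2), and the diagonal marks equal shifts. The 2 Gy HCC of BeadChip 2 lies nearer 0 than the diagonal for most genes (median relative shift 0.49 for rises and 0.56 for falls).

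The 2 Gy HCC of BeadChip 2 was also the single HCC on a slide with low-LET livers, those of 3 and 5 Gy, so its smaller shift and the slide cannot be told apart. With BeadChip as a fixed block 1562 probes were called. The number called was 3886 without this HCC, 2663 without the 2 Gy HCC of BeadChip 3 and 1964 without the 3 Gy HCC.

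**Figure D4:**
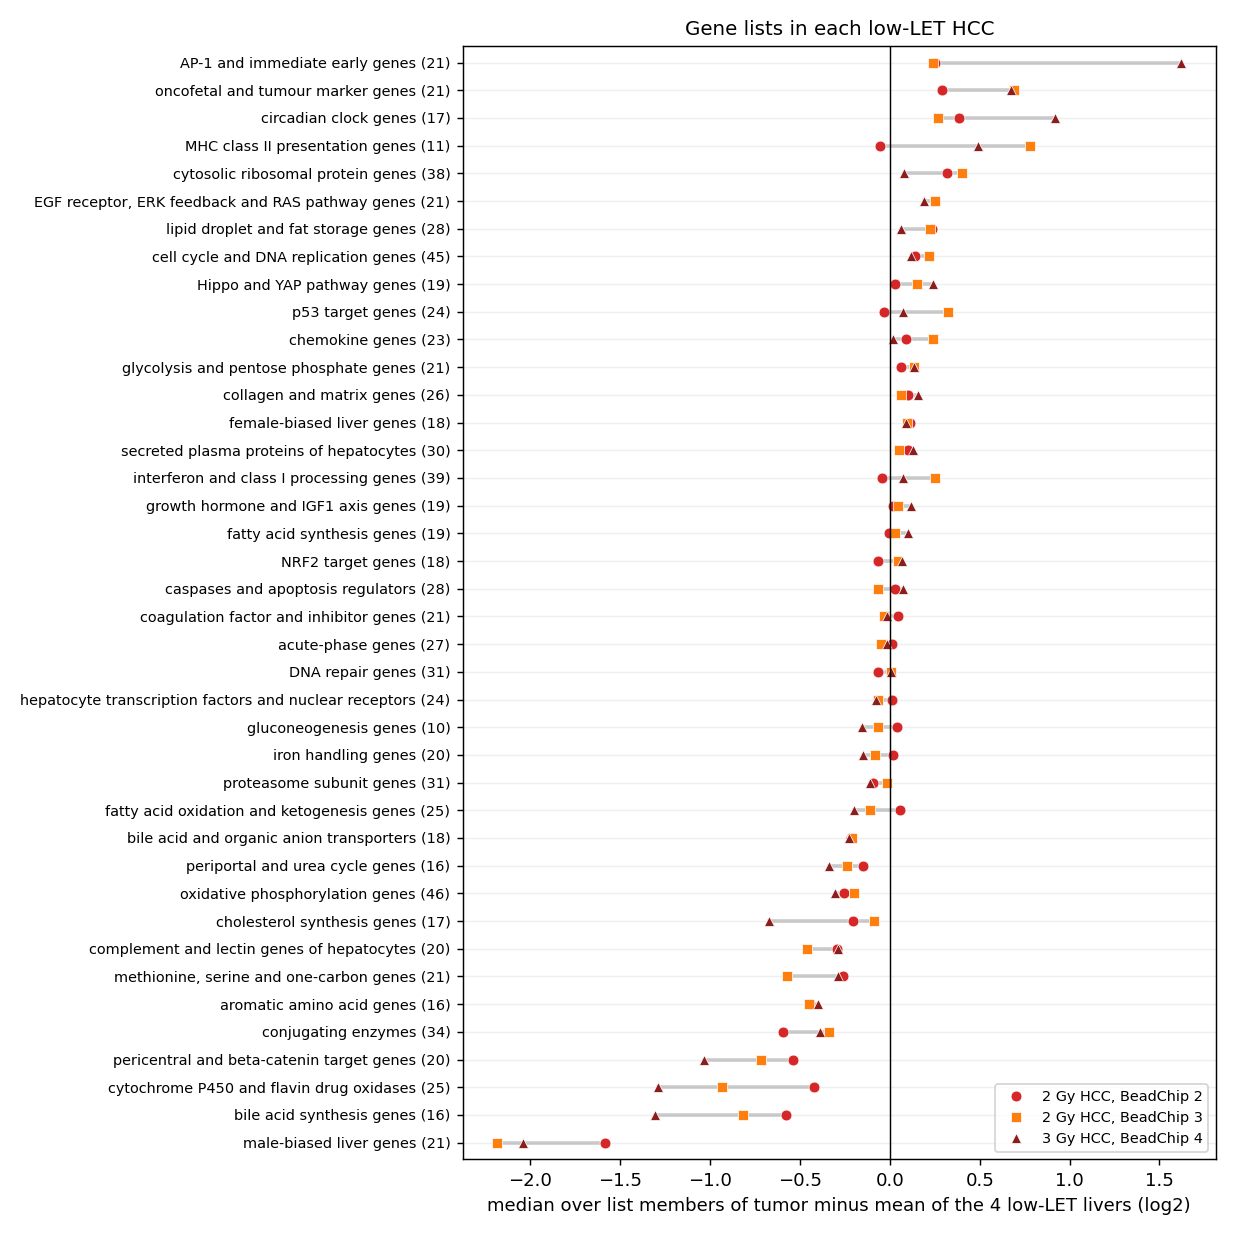
Median over the members of each gene list (number of measured genes in brackets) of the signal in 1 low-LET HCC minus the mean of the 4 low-LET livers (x axis, log2), with 1 symbol per HCC and a gray line for their range. All 3 HCC are below the livers for male-biased (-1.59, -2.18 and -2.04) and bile acid synthesis genes (-0.58, -0.82 and -1.30), and the 3 Gy HCC stands apart for AP-1 genes at 1.62.

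The tumor-to-liver difference of low-LET mice was then set against those of the other mice. Against the spontaneous HCC and sham livers, 0 of 19057 genes differed (0%, limma), with 1907 probes at an unadjusted p under 0.05 and a smallest adjusted p of 0.354. Against the high-LET HCC and livers 5 genes differed (0.0262%). Cst6, a secreted protease inhibitor, read 6.96, 6.92 and 6.73 in the low-LET HCC and 5.94, 6.08, 6.16 and 6.01 in the low-LET livers, and its tumor-to-liver difference was 0.64 larger than in high-LET mice (log2, adjusted p = 0.0178), whose HCC averaged 6.14 and livers 5.96. Dlx3, a homeobox factor, read 7.07, 7.00 and 6.93 in the low-LET HCC, and its difference was 0.71 larger than in high-LET mice, whose HCC averaged 6.28. Agfg1, an endocytic adaptor, read 9.08, 9.502 and 10.11 in the low-LET HCC (1.198 larger), with a mean of 8.45 in high-LET HCC, and Gria3, a glutamate receptor subunit, 7.04, 7.27 and 7.61 (0.98 larger), with a mean of 6.51. All 3 genes were thus above the high-LET mean in every low-LET HCC. Wfdc17, a secreted protein of activated macrophages, went the other way (-1.83, adjusted p = 0.045), with 7.97, 7.25 and 6.67 in low-LET HCC and a mean of 8.67 in high-LET HCC. Its change from low-LET livers to low-LET HCC was -0.31 and was not called. By probes, 7 were called in this comparison. The number was 720 without the 2 Gy HCC of BeadChip 2 and 905 with array weights, but 1 without the 5 Gy liver, 1 without the 7 Gy liver and 1 with BeadChip as a fixed block. The count of differences from high-LET mice thus changed most with the presence of that HCC and with the weight given to each array.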

How the data were processed

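Liver and tumor RNA was hybridized to Illumina MouseWG-6 BeadChips, 1 array per mouse. The authors summarized raw bead intensities in GenomicStudio and deposited these intensity values without normalization. The authors also deposited log2 values after MBCB background subtraction and quantile normalization, used here as an alternative. Raw intensities of all 34 arrays were background-corrected (normexp, offset 50), quantile normalized and log2 transformed (limma 3.58.1, R 4.3.3). A linear model with 6 group means was fitted to 45281 probes, with Benjamini-Hochberg adjustment, no covariate and no filter, and was tested on simulated data. A gene is its brightest probe among the 34885 with 1 symbol. A bound ("at least") is given only where no array of 1 group was above background and every array of the other group was. The number of arrays limits the precision.

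Members, lists and rules were chosen with earlier results of these data known. The rule named the 15 largest non-overlapping rises and falls, up to 4 called members of each list and 3 of each marker list by adjusted p, Alb and Ttr, and genes called between radiation types. Afp, Igf2, Serpina12, Mup21, Cyp2b10, Cyp7a1, Lcn2, Orm2, Saa2, Per1, Ciart, Arntl, Epcam and Mt1 were named after their values were seen. Alternatives changed the background correction, normalization, probe filter, BeadChip block, arrays fitted, linear model and array weights, and left out each low-LET array.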

Additional observations from a re-analysis of the deposited data

Results flagged for a closer look

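In 7 of 192 genes examined, 1 of the 4 low-LET livers stood far from the other 3, by the gap to its nearest neighbor against the whole range (about 1 group in 20 does so by chance). In 5 of them it was the 7 Gy liver. Baat, the bile acid conjugating enzyme, read 8.78 there against 9.52 to 9.65 in the others. Elane, neutrophil elastase, read 8.46 against 6.25 to 6.50, Ghr 12.07 against 11.84 to 11.86, Slc1a2 9.15 against 8.80 to 8.86, and the dendritic cell gene Zbtb46 6.43 against 6.58 to 6.59. The 3 Gy liver read 7.51 for Cyp2b9 against 5.96 to 6.07, and the 5 Gy liver 6.46 for the pancreatic gene Cela2a against 5.91 to 5.98.

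The tumor-to-liver difference was tested between low-LET and high-LET mice, and 5 genes differed (limma). The low-LET difference was larger by 0.64 in Cst6, 0.71 in Dlx3, 1.198 in Agfg1 and 0.98 in Gria3 on the log2 scale, and for Wfdc17 the difference of differences was -1.83.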

How the results depend on the processing

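No paired analysis was possible because the labels number no replicates and each mouse gave 1 array. Of 163 named genes called, 78 kept their call under every alternative, 61 lost it when 1 low-LET array was left out, and none changed sign in those fits. The low-LET count, 2958 probes, was 1419 under median scaling and 1562 with BeadChip as a fixed block, and ran between 1964 (without the 3 Gy HCC) and 3886 (without the 2 Gy HCC of BeadChip 2). The other alternatives gave 2432 to 3948. The count of differences from spontaneous HCC, 0, was 1 with the fixed block, 6 with array weights and 0 to 6 on leaving out an array. That from high-LET HCC, 7, was 2 under median scaling, 1 with the fixed block, 4 in an ordinary linear model, 905 with array weights and 1 to 720 on leaving out an array. That of low-LET against sham livers, 0, was 6 with array weights. A fit of the 7 low-LET arrays gives none of these 3 counts. The causes were not tested.

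Log2 fold changes that changed sign belonged to genes not called, besides those within BeadChip 2. They were -0.24 for Csf3r and -0.00177 for Ttr with the fixed block, and -0.00884 for Lep and 0.054 for Retn with array weights. Leaving out 1 array gave -0.084 to 0.027 for Adipoq, -0.16 to 0.024 for Cela2a, -0.59 to 0.14 for Elane, -0.11 to 0.019 for Epb42, -0.00842 to 0.061 for Lep, -0.097 to 0.055 for Retn, -0.00287 to 0.084 for Ttr and -0.65 to 0.000405 for the low-LET difference of Wfdc17. Within BeadChip 2, with 1 HCC and 2 livers, Ccl5 was -0.19 and Lig1 -0.0094, although both were called higher over all 7 arrays. With 3 HCC the spread between tumors limits every call.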
